A study of Arabidopsis thaliana with 18 samples.

Results

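The response of sog1-7 seedlings to aluminium was measured as poly(A) RNA in 6 of the 18 RNA sequencing libraries of an Arabidopsis thaliana series. SOG1 is a NAC domain transcription factor that switches on repair genes and cell cycle inhibitors after DNA damage, and sog1-7 is, per the series text, a loss-of-function mutant of it that tolerates aluminium. The 6 libraries were chosen by their labels alone: 3 of sog1-7 seedlings on 1.5 mM AlCl3 and 3 of sog1-7 seedlings on 0 mM. All genes were included, 32833 in the count files, of which 21650 passed a filter on low counts. All seedlings were of ecotype Col-0, germinated on soaked gel of pH 4.2 at 20 °C in constant light, and were harvested whole 84 h after sowing. The medium is acid in both groups, so the groups differ in AlCl3 alone as labelled. The 12 other libraries hold Col-0 wild type and als3-1, a mutant of the ABC transporter-like gene ALS3, at the same concentrations with 3 libraries per group. The labels do not say that the libraries of a group are separate cultures, so a p-value here speaks of the spread among the sequenced samples, which may be technical.

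In acid soil, aluminium ions bind to the walls and membranes of root tip cells and stop root growth. Arabidopsis answers by releasing malate and citrate, which chelate the metal outside the root. The zinc finger factor STOP1 drives the genes of this release. The series text places SOG1 in the DNA damage response that Al sets off, and asks which of its targets turn root cells from division to endocycles. Levels are given here as CPM, the gene's count scaled to its library's total after TMM adjustment of that total, for replicates 2, 3 and 4 in that order, and changes as log2 fold changes ± SE from edgeR. A gene was called at an adjusted p under 0.05. Since whole seedlings were sampled, fewer cells of a type and less RNA per cell cannot be told apart.

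The total count was 29749623 to 44499405 per sog1-7 library, and 3 counts corresponded to 0.0674 to 0.101 CPM. The 2 libraries of replicate 2 had 0.0174% and 0.0285% of their reads on ribosomal RNA genes, against 2.31% to 5.71% in the other sog1-7 libraries, and are called the low-rRNA libraries together with als3-1 1.5 mM replicate 2. Libraries on 0 mM are called control and those on 1.5 mM treated libraries, numbered by replicate. In a principal component analysis of the 6 libraries, the first component (46.5% of the variance) set replicate 2 apart from replicates 3 and 4, and the second (27.8%) set 1.5 mM apart from 0 mM. The SOG1 transcript stood at 19.5, 18.6 and 16.6 CPM on 0 mM and at 17.2, 17.7 and 15.1 CPM on 1.5 mM. It does not check the genotype, since the labels do not state that the allele removes the RNA.

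**Figure D1:**
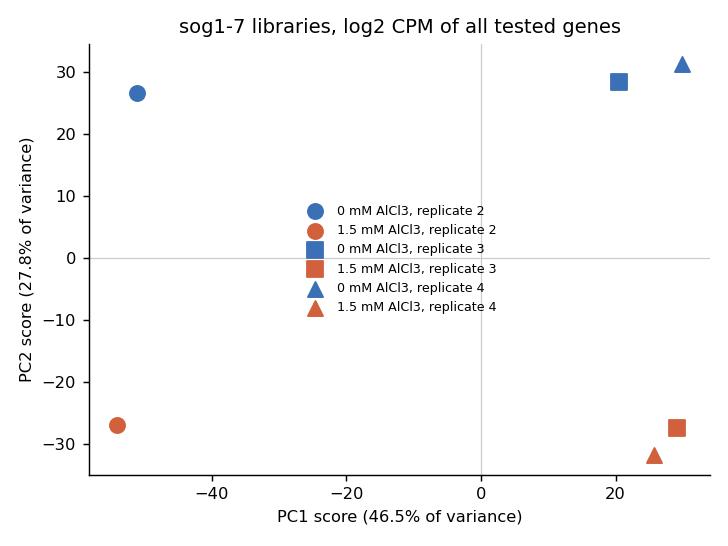
First and second principal component scores of the 6 sog1-7 libraries from log2 CPM of the tested genes. Each point is 1 library, coloured by AlCl3 concentration and shaped by replicate number. Replicate 2 stands apart on the first axis (−51.1 and −54.1, against 20.5 to 29.9), and the concentrations stand apart on the second (26.6 to 31.3 on 0 mM, −27 to −31.8 on 1.5 mM).

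In sog1-7 seedlings, Al raised some genes of organic acid release, potassium uptake, phosphate starvation, suberin and wall proteins, and lowered some of iron uptake and receptor kinases and the sulfate transporter gene SULTR1;1. Of 21650 genes, 257 were called (1.19%), 160 higher (0.739%) and 97 lower (0.448%). Of these, 121 rose and 66 fell at least 2-fold. In each of the 257 genes the 3 libraries on 1.5 mM did not overlap the 3 on 0 mM, which also held for 7.11% of all tested genes in the higher and 6.68% in the lower direction. With the replicate number as a block, 353 genes were called higher (1.63%) and 201 lower (0.928%), 2.56% in all, among them 155 of the 160 and 89 of the 97. With the low-rRNA libraries left out, 90 were higher (0.415%) and 52 lower (0.24%), 0.655% in all, among them 77 and 43 of those calls. Of the genes named below, that fit ended the calls of CBSX5, AT1G17540, AT2G22510, AT1G26250, AT1G29090, AT1G29100, ALS3, FBL3, CYP86A1, CYP86B1, GPAT5, NIA1, NRAMP3, GSTF3, RD29A, GOLS3, AGP30, MRN1, XTH20, MIR163, AT3G44870, XTH19, PELPK2, WRKY38 and MSRB7 (adjusted p = 0.0537 to 0.349). In all 6 fits that left out 1 sog1-7 library, 76 of the 160 and 40 of the 97 were called. Counts were more than 1.5 times smaller without control library 2 (101 higher, 61 lower) or 3 (102 higher), and without treated library 3 (52 lower) or 4 (98 higher, 46 lower).

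**Figure D2:**
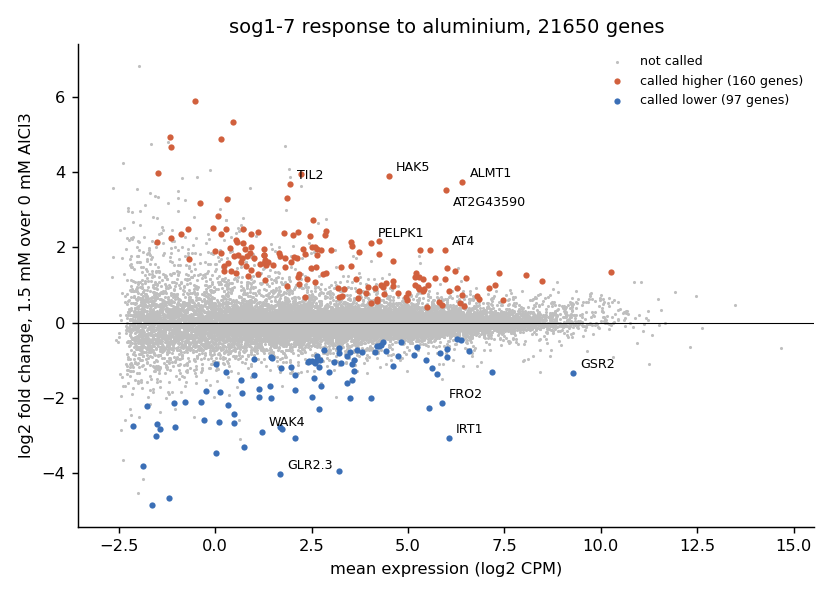
Log2 fold change of 1.5 mM over 0 mM AlCl3 in sog1-7 against mean expression in log2 CPM over the 18 libraries, 1 point per tested gene. Orange points are the 160 genes called higher, blue points the 97 called lower, and grey points were not called. ALMT1, HAK5 and AT2G43590 lie between 3.54 and 3.90, and IRT1 lies at −3.08.

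Organic acid release and other Al resistance genes came first. ALMT1 (AT1G08430, chromosome 1, 2658602 to 2661310), the root malate channel, had 7.18, 11.4 and 10.7 CPM on 0 mM and 122, 134 and 135 CPM on 1.5 mM. Each treated library was thus far above each control library, and ALMT1 rose by 3.74 ± 0.20 (adjusted p = 7.32e-08). The citrate transporter gene AT1G51340, labelled MATE in the plots, rose from 3.99, 4.31 and 2.92 to 20, 13.1 and 16.8 CPM (2.15 ± 0.24, adjusted p = 0.000195). GDH1, a mitochondrial glutamate dehydrogenase, went from 33.6, 32 and 34.3 to 107, 76.8 and 86.6 CPM (1.44 ± 0.14, adjusted p = 5.32e-05). These were called in each of the 6 fits without 1 library. Of 17 tested members of the aluminium resistance list, 6 were called higher and 0 lower, with a median log2 fold change of 0.63 against −0.0048 over all tested genes. DESeq2 called 11 of the 17, as many as had an unadjusted p under 0.05. Over all 21650 tested genes DESeq2 called 542, and 1852 had an unadjusted p under 0.05.

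The other called members were less secure. ALS3 rose by 1.28 ± 0.28 (adjusted p = 0.0332), and its call held only without treated library 2 among the fits that left out 1 library (0.0593 to 0.164 in the other 5). PGIP2, an inhibitor of pectin-degrading enzymes, rose by 1.16 ± 0.21, and its call was lost on dropping control library 3 or 4 (adjusted p = 0.0537 and 0.0564). The F-box gene FBL3 rose by 0.85 ± 0.16, and its call was lost on dropping control library 2 or 4 or treated library 3 or 4 (adjusted p = 0.0514 to 0.0788). STOP1 itself had a log2 fold change of −0.04 (64.9 and 63.2 CPM). XTH31, a wall-loosening enzyme of the list, had −1.32 (590 and 236 CPM, adjusted p = 0.0581) and passed with the replicate block (0.000577).

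Potassium and other ion transporters formed the next group. HAK5 (AT4G13420, chromosome 4, 7796782 to 7802251), the high-affinity potassium uptake transporter of roots, had 1.64, 1.99 and 2.15 CPM on 0 mM and 28, 28.1 and 30 CPM on 1.5 mM. The 3 treated libraries were nearly equal, and HAK5 rose by 3.90 ± 0.35 (adjusted p = 2.97e-05). SULTR1;1, a high-affinity sulfate uptake transporter, moved the other way, from 3.3, 4.73 and 3.26 to 0.582, 0.529 and 0.514 CPM (−2.79 ± 0.42, adjusted p = 0.00245). NIA1, a nitrate reductase, went from 504, 605 and 510 to 1398, 1310 and 1430 CPM (1.35 ± 0.27, adjusted p = 0.0167). Its call was lost on dropping any 1 control library or without treated library 4 (adjusted p = 0.053 to 0.0868). Of 21 tested members of the potassium, sulfate and nitrogen list, 2 were called higher and 1 lower (3 and 3 with the block), and the median was −0.02.

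Outside the lists, and picked after their values were seen, further transporters rose. The inward potassium channel KAT2 (AT4G18290) went from 18.2, 12 and 9.82 to 62.7, 44.9 and 46.6 CPM (1.94 ± 0.25, adjusted p = 0.000602). SULTR3;1 and SULTR3;5, both of the sulfate transporter family, rose by 1.74 ± 0.21 and 1.12 ± 0.13. With SULTR1;1 they were the 3 called of 12 tested sulfate transporter genes, 2 higher and 1 lower. MTP11, a manganese transporter of the secretory system, rose by 0.99 ± 0.12 with treated libraries of 51.3, 53.6 and 54.9 CPM. The vacuolar chloride transporter gene CLC-C and the ABC transporter gene ABCC6 rose by 0.52 ± 0.09 and 0.79 ± 0.14. The vacuolar metal exporter NRAMP3 rose by 0.57 ± 0.10, and its call was lost on dropping control library 2 or 3 or treated library 3 (adjusted p = 0.0531 to 0.0586).

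**Figure D3:**
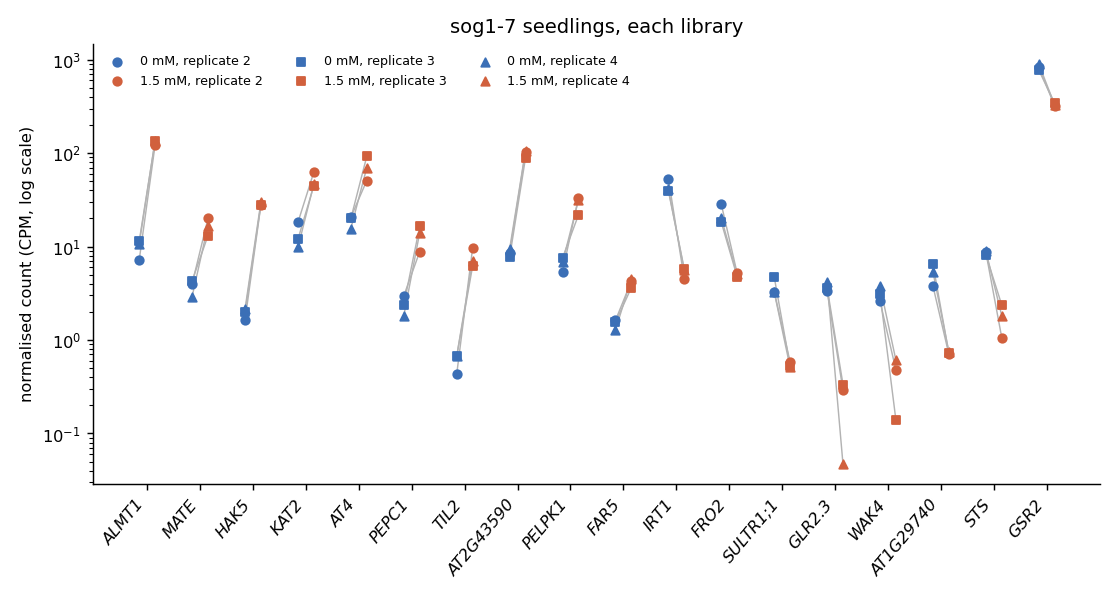
Normalised counts (CPM, log scale) of 18 genes in each sog1-7 library. Blue points are 0 mM, orange points are 1.5 mM, marker shape gives the replicate number, and grey lines join libraries of the same number. The genes shown were picked from the called genes, in all of which the concentrations do not overlap, so their separation follows from that choice. For example, HAK5 had 1.64 to 2.15 against 28 to 30 CPM.

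Genes of phosphate starvation rose as a group of 7 called among 30 tested, with 0 lower and a median of 0.75. In this response the factor PHR1 binds the P1BS element, GNATATNC, in promoters. The reference upstream windows (250 bases before the gene start, TAIR10) of 4 of the 7 called genes hold it, and the stretches around it are shown because they carry the motif, in capitals, that these genes share.
PAP14 (chr2:19266570-19266617, minus strand): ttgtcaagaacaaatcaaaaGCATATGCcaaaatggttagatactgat
PAP14 (chr2:19266533-19266580, minus strand): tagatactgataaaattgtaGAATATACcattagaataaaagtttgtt
NPC4 (chr3:845288-845335, minus strand): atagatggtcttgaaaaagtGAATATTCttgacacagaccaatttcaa
AT4 (chr5:894536-894581, plus strand): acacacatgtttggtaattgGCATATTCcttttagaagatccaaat
MGD2 (chr5:6896429-6896462, plus strand): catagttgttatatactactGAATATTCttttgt

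GNATATNC, read on both strands, was in 30% of the windows of the 30 tested list members, in 8.12% of those of the 160 genes called higher, in 5.15% of those of the 97 called lower and in 5.43% of all 21650. The core TTGAC, bound by WRKY factors, was in 61.2% of windows of genes called higher, 60.8% of those called lower and 45.2% of all. No match was read as a binding site.

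AT4 (AT5G03545) and IPS1 (AT3G09922) are non-coding RNAs that bind the phosphate microRNA miR399. AT4 went from 20.6, 20 and 15.6 to 50.8, 92.2 and 69.7 CPM (1.92 ± 0.26, adjusted p = 0.000864). IPS1 went from 2.18, 1.34 and 0.303 to 9.47, 10.5 and 6.47 CPM (2.74 ± 0.46, adjusted p = 0.00477). PEPC1, a phosphatase that frees phosphate from lipid head groups, went from 2.97, 2.38 and 1.82 to 8.79, 16.4 and 14 CPM (2.44 ± 0.37). In each of these the treated libraries lay above the controls, and in AT4 and PEPC1 replicate 2 was the lowest treated library. NPC4, a phospholipase C, rose by 1.58 ± 0.25 from 0.841, 0.956 and 1.24 CPM. These 4 genes were called in each of the 6 fits without 1 library.

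The purple acid phosphatase gene PAP14 varied widely, from 0.776, 0.646 and 0.202 to 3.82, 13.8 and 8.5 CPM (3.95 ± 0.78, adjusted p = 0.0167). Its call was lost on dropping any 1 control library or without treated library 3 (adjusted p = 0.0635 to 0.092). MGD2 and SQD2, enzymes that replace phospholipids by galactolipids and sulfolipids, rose by 1.33 ± 0.26 and 0.91 ± 0.18. Both calls were lost on dropping treated library 3, treated library 4 or control library 4, and that of MGD2 also without control library 2 (adjusted p = 0.0579 to 0.097). With the replicate block 15 of the 30 were called higher. The phosphate exporter PHO1 had −0.17 and the regulator PHO2 0.48, without a call.

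Iron uptake genes fell. Arabidopsis roots reduce ferric iron with FRO2 and import it with IRT1, both under the factor FIT1. IRT1 (AT4G19690, chromosome 4, 10707344 to 10709015) had 53.3, 39.5 and 41 CPM on 0 mM and 4.53, 5.77 and 5.58 CPM on 1.5 mM. It fell by 3.08 on the log2 scale (SE 0.19, adjusted p = 4.13e-07). FRO2 went from 28.4, 18.2 and 20.1 to 5.17, 4.76 and 5.05 CPM (−2.15 ± 0.24, adjusted p = 0.000202). FIT1 went from 17.4, 10.4 and 10.9 to 6.19, 2.67 and 3.69 CPM (−1.62 ± 0.32, adjusted p = 0.0178). The call of FIT1 was lost on dropping control library 2 or treated library 3 or 4 (adjusted p = 0.0941 to 0.114). These were the 3 called of 30 tested iron genes, 0 were higher, and the median was −0.41. The factor gene MYB72 had −3.09 without a call. The iron transporter OPT3 had −0.38 and the regulator BTS −0.39, without a call (adjusted p = 1 for both).

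IRT1 was also the only gene whose Al response was called different from that of wild type (1 of 21650, 0.00462%). The difference was −1.86 ± 0.26 (adjusted p = 0.0482). Wild type went from 161 ± 32.5 to 69.3 ± 3.99 CPM (SD, n = 3), against 44.6 ± 7.56 and 5.29 ± 0.669 CPM in sog1-7, and the difference in starting level was not tested. The call was lost with the replicate block (adjusted p = 0.16), without the low-rRNA libraries (0.447) and without any 1 of the 12 libraries. It held with DESeq2 (2.39e-07), which called 3 genes in all. With edgeR 435 of 21650 genes had an unadjusted p under 0.05. That is a smaller share than the 0.05 which this threshold passes when no gene differs. This fit does not use the pairing of same-numbered libraries, and the share does not show that sog1-7 and wild type respond alike.

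A minority of suberin and wall protein genes were called, mostly higher. Suberin is the fatty polymer that seals endodermal cells. Of 19 tested suberin genes 4 were called higher and 0 lower, 18 had a positive log2 fold change, and the median was 0.89. FAR5, a fatty acyl reductase, went from 1.62, 1.55 and 1.28 to 4.26, 3.62 and 4.53 CPM (1.48 ± 0.23, adjusted p = 0.00262). The fatty acid hydroxylase CYP86A1 rose by 1.93 ± 0.34, and its call was lost on dropping control library 2 (adjusted p = 0.0522). CYP86B1, a second hydroxylase, and the acyltransferase GPAT5 rose by 1.77 ± 0.34 and 1.79 ± 0.36. Both calls were lost on dropping control library 2, control library 4 or treated library 4 (adjusted p = 0.0606 to 0.106). Without the low-rRNA libraries only FAR5 of the 4 was called. Of 9 tested genes of the Casparian strip, the lignin band of the same cells, 0 were called with edgeR or DESeq2 and 0 had an unadjusted p under 0.05 (median 0.04).

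Among wall genes named after their values were seen, PELPK1, a proline-rich wall protein, went from 5.37, 7.57 and 6.76 to 33, 21.7 and 31.4 CPM (2.13 ± 0.24, adjusted p = 0.000211), and its tandem neighbour PELPK2 rose by 1.97 ± 0.31. They were 2 of the 5 called higher among 54 tested hydroxyproline-rich glycoprotein genes, of which 0 were lower, 21 had a negative log2 fold change, and the median was 0.03. The summed level of these 54 was lower on 1.5 mM (2187 to 2898 CPM) than on 0 mM (2910 to 3813 CPM). Another was AT2G22510, which rose by 2.33 ± 0.35. Glycine-rich protein genes had 5 of 46 higher and 0 lower, among them AT4G33610 (2.41 ± 0.32) and AT1G55990 (2.33 ± 0.31). Of 61 tested peroxidase genes, 6 were higher and 0 lower, among them PRXCB (67.4, 109 and 94.1 to 179, 266 and 229 CPM, 1.32 ± 0.20) and AT5G39580 (1.20 ± 0.14). Of 38 genes of the membrane family to which the Casparian strip proteins belong, 5 were higher and 0 lower. Of 26 xyloglucan endotransglucosylase genes, which recut wall polysaccharides, 4 were higher and 1 lower by their product name, and XTH19 rose by 1.16 ± 0.20. The lower 1, XTH20, had −0.62 ± 0.14, and its call was lost on dropping any 1 of the 6 libraries (adjusted p = 0.0997 to 0.148). With the low-rRNA libraries left out, 2 hydroxyproline-rich, 2 glycine-rich, 1 Casparian strip-like and 1 xyloglucan gene were called higher, and peroxidases had 4 higher and 2 lower (6 higher and 3 lower with the block). The extensin-like gene AT1G26250 fell from 13.8, 15.6 and 24 to 1.06, 0.975 and 1.38 CPM (−3.96 ± 0.81, adjusted p = 0.02). Its call was lost on dropping control library 4 or any 1 treated library (adjusted p = 0.067 to 0.103).

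**Figure D4:**
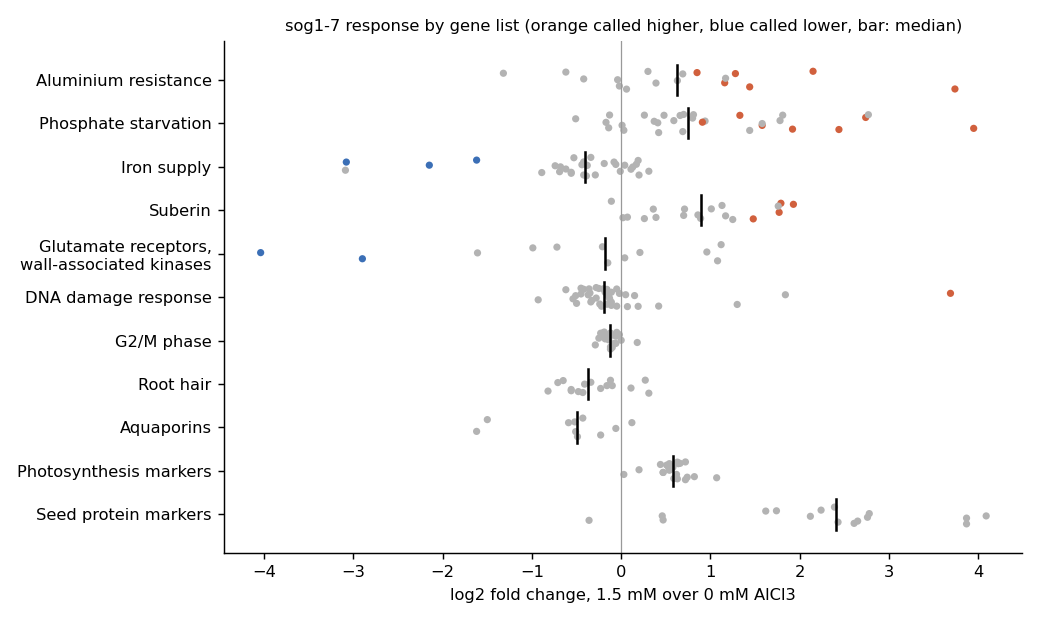
Log2 fold change of 1.5 mM over 0 mM AlCl3 in sog1-7 for the tested members of 11 gene lists, 1 point per gene, with the list median as a black bar. Orange points were called higher and blue points lower. The medians run from −0.50 (aquaporins) to 2.41 (seed proteins, none called), and the called gene of the DNA damage response list, TIL2, lies at 3.69.

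Some genes of cell surface receptors fell. GLR2.3, a glutamate receptor-like channel, had 3.32, 3.62 and 4.2 CPM on 0 mM and 0.291, 0.334 and 0.0467 CPM on 1.5 mM. The last value is below the level of 3 counts, and GLR2.3 fell by 4.04 on the log2 scale (SE 0.50, adjusted p = 0.000428). The wall-associated kinase gene WAK4 went from 2.59, 3.07 and 3.77 to 0.478, 0.139 and 0.607 CPM (−2.90 ± 0.36, adjusted p = 0.000434). These were the 2 called of 12 tested glutamate receptor and wall-associated kinase genes, the median was −0.18, and WAK1 and WAK2 had 0.21 and −0.15. Of 139 leucine-rich repeat kinase genes, a family counted after the values were seen, 12 were lower and 0 higher (9 and 0 without the low-rRNA libraries), with a median of −0.05 and 56 positive values. AT1G29740 went from 3.77, 6.46 and 5.35 to 0.706, 0.724 and 0.748 CPM (−2.83 ± 0.27, adjusted p = 4.78e-05), and AT1G05700 from 12.1, 12.1 and 13.1 to 3.95, 4.15 and 4.93 CPM (−1.52 ± 0.16).

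Sugar, nitrogen and detoxification enzymes moved in both directions. The stachyose synthase gene STS, of the raffinose family of sugars, went from 8.67, 8.14 and 8.94 to 1.06, 2.37 and 1.82 CPM (−2.30 ± 0.28, adjusted p = 0.000359). The galactinol synthase gene GOLS3 fell by 1.68 on the log2 scale, and its call ended in 5 of the 6 fits, all but that without control library 4 (adjusted p = 0.0577 to 0.104). GolS7, another galactinol synthase named after its values were seen, had 1 count in all over the 3 control libraries and 93 over the treated ones, a ratio of 84.2 with an exact 95% counting interval of 14.7 to 3362. GSR2, a cytosolic glutamine synthetase, fell from 835, 774 and 899 to 319, 340 and 328 CPM (−1.35 ± 0.13, adjusted p = 7.42e-05). The allantoate amidohydrolase AAH and the GABA transaminase POP2, which free nitrogen from ureides and GABA, rose by 1.15 ± 0.12 and 0.60 ± 0.09. The alpha carbonic anhydrase ACA1 rose from 37.7, 32.3 and 29 to 93.1, 84.7 and 79.3 CPM (1.37 ± 0.13). These 4 were named after their values were seen.

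The glutathione transferase gene GSTF14 fell by 2.02 on the log2 scale (SE 0.27, adjusted p = 0.000677). GSTF3, the 1 called of 21 tested oxidative stress and glutathione transferase genes (2 with the block), rose by 2.13 ± 0.48, and its call was lost on dropping any 1 of the 6 libraries (adjusted p = 0.0538 to 0.169). RD29A, an abscisic acid and cold response gene, fell by 0.99 on the log2 scale, and its call ended in 5 of the 6 fits, all but that without control library 3 (adjusted p = 0.0701 to 0.134), and with the replicate block (0.0618). Of 18 tested defence genes 0 were called with DESeq2 or with edgeR without the block, 1 was called higher with it, and 0 had an unadjusted p under 0.05 (median 0.24).

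The remaining genes with the largest changes were these. The chitinase family gene AT2G43590 went from 8.58, 7.7 and 9.41 to 104, 89 and 106 CPM (3.54 ± 0.19, adjusted p = 7.32e-08), beside 2 other of 10 tested genes of that family that fell. AT2G18480, a sugar-type major facilitator, rose by 3.31 ± 0.34. The CBS domain genes CBSX5 and AT5G52790 rose by 2.40 ± 0.39 and 2.17 ± 0.24, and the TRAF-like gene AT4G01390 rose by 2.31 ± 0.32. The kinase gene AT1G17540 rose by 2.39 ± 0.54, and its call held only without treated library 2 (adjusted p = 0.0868 to 0.184 in the other 5 fits). Of the falls, the ankyrin repeat gene AT5G04730 reached −3.08 ± 0.45, the phloem lectin-like gene PP2-A8 −2.0 ± 0.30, the oxygenase gene AT1G12010 −1.98 ± 0.29 and the myosin-annotated gene HDK −1.97 ± 0.23. The cysteine protease gene AT1G29090 fell from 94.9, 86.1 and 64.2 to 13.6, 13.1 and 24.1 CPM (−2.27 ± 0.37). AT1G29100, a metal-binding domain gene close to it on chromosome 1, fell by 2.0 on the log2 scale, and its call was lost on dropping replicate 2 or 3 of either concentration (adjusted p = 0.0556 to 0.092). Regulators chosen after seeing their values included LAF1, a MYB factor (1.95 ± 0.23), WRKY38 (1.82 ± 0.31), the AP2 factor gene tny (−1.30 ± 0.21) and TGA9 (−0.59 ± 0.10).

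The microRNA gene MIR163 and its annotated targets were examined because the reference annotation lists methyltransferases of the SAMT family as targets of miR163. The mature microRNA is shown with its seed in capitals. Below it is the best site found without gaps in each transcript shown, with bases that match the exact complement in capitals. All are given 5′ to 3′ as RNA (TAIR10 coordinates).
miR163 (chr1:24884359-24884382, plus strand): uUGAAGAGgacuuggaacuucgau
AT3G44870 (chr3:16382618-16382641, plus strand): uaucgAGUUCCAAGUuuUCUUCAA
FAMT (chr3:16380055-16380078, plus strand): AaucgAGUUCCAAGUuuUCUUCAA
PXMT1 (chr1:24874307-24874330, minus strand): caucgAGUUCCAAGUCCUCUUCAA
AT1G66690 (chr1:24870402-24870425, minus strand): caucgAGUUCCAAGUCCUCUUCAA

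Without gaps and without G to U pairs, 17 of 24 bases pair in AT3G44870, 18 in FAMT and 19 in PXMT1 and AT1G66690. AT1G66720 was searched too, and its site, with 18 bases paired, is not shown. Bases in lower case may still pair across a gap or as G to U, so these counts do not rank the sites. Each site lies in exon 2 of its gene. The poly(A) transcript of MIR163 (AT1G66725) went from 7.22, 5.4 and 6.02 to 2.62, 2.37 and 2.06 CPM (−1.40 ± 0.28, adjusted p = 0.019). AT3G44870 went from 0.0862, 0.155 and 0.538 to 1.54, 1.53 and 3.64 CPM (3.18 ± 0.68, adjusted p = 0.0288). The groups overlapped in neither gene. The call of MIR163 was lost on dropping control library 2 or 4 or treated library 3 or 4 (adjusted p = 0.0549 to 0.124), and with the block (0.0576). That of AT3G44870 was lost on dropping control library 2 or 3 or treated library 4 (0.143 to 0.167). FAMT had 1.86 (adjusted p = 0.617), PXMT1 0.81 and AT1G66690 0.14, none called. The mature microRNA is not a poly(A) RNA and was not measured. AT3G44870 and FAMT share 1.83% of the 50-base stretches of the AT3G44870 transcript. In als3-1, where MIR163 also fell (−1.75), AT3G44870 had −1.89.

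The DNA damage response, in which SOG1 acts, showed 1 called gene among 38 tested, and the median of the list was −0.19. That gene was TIL2 (AT2G27120, chromosome 2, 11581214 to 11594397), annotated as a catalytic subunit of DNA polymerase epsilon. It had 0.431, 0.671 and 0.672 CPM on 0 mM and 9.58, 6.16 and 7.01 CPM on 1.5 mM, and the groups were far apart. It rose by 3.69 ± 0.31 (adjusted p = 2.07e-05), and by 3.91 in wild type. TIL1, the other gene for this subunit, had 47.2 and 41 CPM, without a call, and since the 2 genes are close copies their counts may share reads. Of the 38, 30 had a negative log2 fold change. SMR7, a cell cycle inhibitor, had 0.453, 0.31 and 1.38 CPM on 0 mM and 0.644, 0.251 and 0.584 CPM on 1.5 mM (−0.45, adjusted p = 1), and without control library 4 its log2 fold change was 0.38. ERF115, a stem cell replenishment factor, had 3 and 13 counts over the 2 groups, a ratio of 3.92 with an exact 95% counting interval of 1.08 to 21.5 (adjusted p = 0.495).

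The control library of replicate 4 was high in this list, a fact found after its values were seen. Of 38 members, 20 had their highest sog1-7 value in control library 4. The share of all tested genes that peaked there was not counted, so this is not shown to be particular to the list. That library had the lowest total count (29749623) and the highest ribosomal RNA share (5.71%) of the 6. The summed level of the list was 1148 CPM there and 837 and 957 CPM in the other controls. On 1.5 mM it was 735 to 868 CPM. GMI1, a repair protein gene, stood at 84.3 CPM in that library and at 30.6 and 29.2 CPM in the other controls.

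Compared with als3-1, the Al response of sog1-7 was called different for 249 genes (1.15%), 189 with a higher (0.873%) and 60 with a lower response (0.277%) in sog1-7. With the replicate block the count was 410, and leaving out the low-rRNA libraries brought it to 109. In 172 of the 189 the gene fell in als3-1, and in 60 of the 60 it rose there, while 18 of the 249 were called in sog1-7 itself. The als3-1 counts follow in part from choosing the genes by their difference from als3-1. Of the 38 DNA damage genes, 14 had a lower and 1 a higher response in sog1-7. The median log2 fold change of the 14 was −0.17 in sog1-7, 0.73 in wild type and 1.95 in als3-1. The 14 were chosen by their difference from als3-1, so a gap between the sog1-7 and als3-1 medians follows from that choice. Over the 38 tested members the medians were −0.19, 0.23 and 0.99 in the same order. Of these 14, 10 had their highest sog1-7 value in control library 4. The difference reached −5.14 ± 0.68 for SMR7, −2.46 ± 0.33 for the telomere-binding family gene TRFL10, −2.35 ± 0.34 for the radiation-induced gene XRI1, −2.14 ± 0.33 for BRCA1 and −1.20 ± 0.18 for PARP1 (adjusted p = 0.00118 to 0.00335). These 5 were called in every alternative. For RAD17, PARP2 and TIL1 (−2.13, −2.22 and −1.40) the call ended only without the low-rRNA libraries (adjusted p = 0.0583 to 0.0842). GMI1, SYN2, AGO2 and ERF114 also lost it in that fit (0.0651, 0.123, 0.0888 and 0.456) and on dropping single libraries, als3-1 1.5 mM replicate 3 in each case, and were called in 11, 14, 13 and 4 of 18 alternatives.

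The consensus that SOG1 binds, CTT and AAG with 7 bases of any kind between them, read on both strands, lies in the 250-base upstream window of 4 of these 14 genes (28.6%), of 8 of the 38 (21.1%) and of 9.22% of all 21650. The stretches of the 2 genes with the largest differences are shown, with the motif in capitals.
SMR7 (chr3:10231578-10231630, minus strand): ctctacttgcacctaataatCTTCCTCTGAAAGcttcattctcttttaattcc
AT1G20750 (chr1:7209116-7209168, minus strand): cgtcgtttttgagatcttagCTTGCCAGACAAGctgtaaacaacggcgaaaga

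TIL2 has no such match in its window. The helicase gene AT1G20750 had 0.129, 0.103 and 0.202 CPM on 0 mM and 0.436, 0.0279 and 0.0701 CPM on 1.5 mM in sog1-7, and differed from als3-1 by −5.31 ± 0.95 (adjusted p = 0.0105, or 0.0501 without control library 4 of sog1-7).

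**Figure D5:**
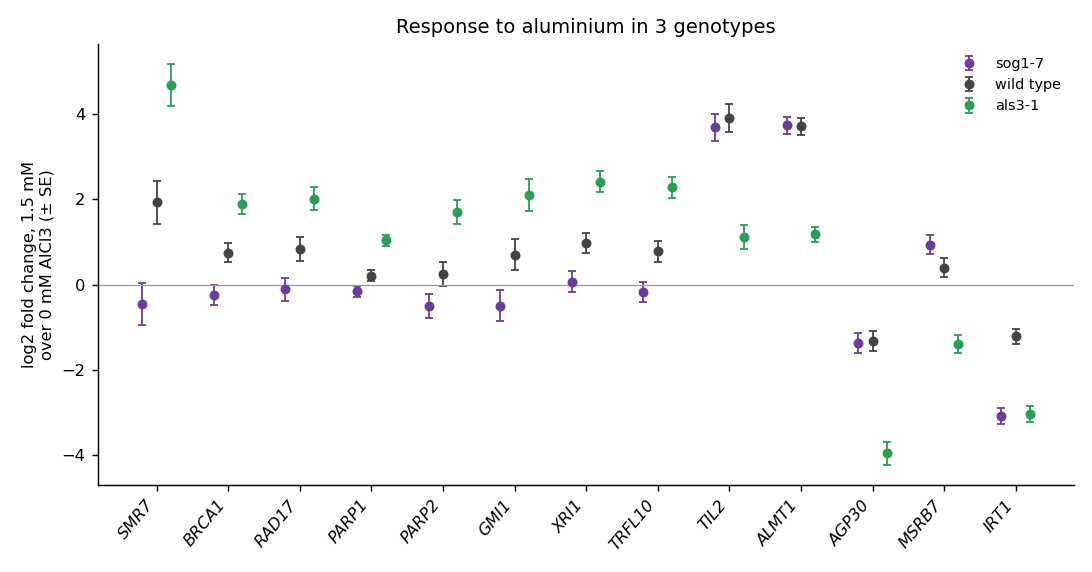
Log2 fold change of 1.5 mM over 0 mM AlCl3 with its SE for 13 genes in sog1-7 (purple), wild type (grey) and als3-1 (green), 3 libraries against 3 in each. The first 8 genes are of DNA repair and cell cycle arrest and lie between −0.51 and 0.07 in sog1-7. They were picked from the DNA damage response members whose Al response was called lower in sog1-7 than in als3-1. Their gap between these genotypes follows from that choice, and not all such members lie within this range in sog1-7. TIL2 and ALMT1 lie at 3.69 and 3.74 in sog1-7 and at 1.11 and 1.18 in als3-1.

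Some genes called in sog1-7 had another response in als3-1. ALMT1 differed by 2.56 ± 0.26 (adjusted p = 0.000251) and the chitinase gene AT2G43590 by 1.48 ± 0.25. TIL2 differed by 2.58 ± 0.41 (adjusted p = 0.00486, or 0.0816 without the low-rRNA libraries). AGP30, a root arabinogalactan protein, fell in sog1-7 from 82.6, 91.2 and 105 to 38.7, 38.3 and 30.9 CPM (−1.37 ± 0.24, call lost without treated library 4, adjusted p = 0.0593) and by 3.96 on the log2 scale in als3-1. MSRB7, a methionine sulfoxide reductase, had 0.94 in sog1-7 and −1.40 in als3-1, a difference of 2.34 ± 0.31 (adjusted p = 0.00118). Its rise in sog1-7 was called only without treated library 3 among the fits without 1 library (adjusted p = 0.0768 to 0.263 in the other 5).

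Among the most positive differences were genes that were not called in sog1-7 and fell in als3-1. The neighbouring lipid-transfer family genes AT5G46900 and AT5G46890, whose counts may share reads, had 0.31 and 0.13 in sog1-7, and TRM10 had 0.06, with differences of 5.56 ± 0.96, 4.79 ± 0.71 and 2.96 ± 0.29. The stem cell regulators PLT1 and PLT2 differed by 1.74 ± 0.35 and 1.31 ± 0.29 (called in 12 and 8 of 18 alternatives). Both calls were lost with the low-rRNA libraries left out (adjusted p = 0.0816 and 0.16) and on dropping als3-1 replicate 2 or 3 of either concentration or treated library 4, and that of PLT2 also on dropping als3-1 1.5 mM replicate 4, control library 2 or 4 or treated library 3. In the lists, 0 of 13 tested stem cell niche genes and 0 of 22 G2/M genes were called in sog1-7 with edgeR or DESeq2 (1 and 0 at an unadjusted p under 0.05).

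The called genes were also read in wild type, whose libraries are separate. Each of the 160 genes called higher in sog1-7 had a positive log2 fold change in wild type, and each of the 97 called lower a negative one, beside 49.6% positive over all tested genes. Wild type had 1.88% of all genes called (0.896% higher, 0.988% lower) and als3-1 10.8% (4.56% higher, 6.29% lower). Of the 160, 104 were called in wild type (65%, and 53.6% of the 194 called higher there), and of the 97, 79 (81.4%, and 36.9% of the 214 called lower there). In als3-1 151 of the 160 were positive and 96 of the 97 negative.

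Markers of other organs and of seedling age are given beside the treatment. The summed level of 22 photosynthesis genes was 13053 to 20248 CPM on 0 mM and 23639 to 29864 CPM on 1.5 mM, without overlap, and 22 of 22 log2 fold changes were positive (median 0.58, against −0.12 in wild type and 0.44 in als3-1). None was called in the fit without a block, 8 were called with it, 7 had an unadjusted p under 0.05 and DESeq2 called 1. The summed level of 16 seed protein genes was 12.1 to 15 CPM on 0 mM and 17.3, 102 and 78.1 CPM on 1.5 mM. Their median was 2.41, against −0.25 in wild type, where 0 were called, and 3.35 in als3-1, where 7 were called higher. In sog1-7 0 of the 16 were called (2 with the block, 4 with DESeq2, 8 at an unadjusted p under 0.05). The 5 genes of seed reserve use summed to 4921 to 7824 CPM on 0 mM and 4060 to 11828 CPM on 1.5 mM, with a median of 0.18, 0 called by edgeR or DESeq2 and 0 at an unadjusted p under 0.05. All 22 photosynthesis and all 16 seed protein genes had counts above 0 in each of the 6 libraries. Root tissue genes summed to 6238 to 8630 and 5579 to 7927 CPM, and of 7 tested 1 was called higher and 1 lower, MRN1, a marneral synthase (3.30 ± 0.64, call lost without control library 2 or 3 or treated library 4, adjusted p = 0.068 to 0.0874), and AGP30. Root hair genes had a median of −0.38 and aquaporins of −0.50, with 0 called in both in the fit without a block (0 and 3 lower with it, 4 and 4 at an unadjusted p under 0.05, 0 and 1 with DESeq2). Beside these counts, of all 21650 tested genes 1852 had an unadjusted p under 0.05, DESeq2 called 542 and the block fit 554. The part of these marker shifts in the results above was not tested.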

How the data were processed

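Whole-number counts per gene were deposited by the authors and came from featureCounts 2.0.0 per the submitters' processing notes. The FPKM values were deposited by the authors too, and the notes name Cufflinks 2.2.1, STAR 2.7.3a and TAIR10. How the counting treated strand and multi-mapping reads is not stated, so close copies and overlapping genes are uncertain. Of 32535 loci, 99.95% had the same start and end in the reference annotation, whose sequences are shown (RefSeq TAIR10.1). All 285 organelle genes stood at 0.

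Counts of 18 libraries were fitted with edgeR 4.0.16 (TMM, filterByExpr by group, robust quasi-likelihood, 1 mean per group). Benjamini-Hochberg adjusted p-values run over 21650 genes, and the median log2 fold change was −0.0048. The step was tested on simulated data. Same-numbered sog1-7 libraries deviated together (r = 0.76, 0.53 and 0.55), against −0.59 to 0.19 for differently numbered ones. In wild type and als3-1 same-numbered libraries had 0.21 to 0.37. The main fit does not use this pairing, and the block fit does. No 2 sog1-7 libraries were copies (lowest chi-square per degree of freedom 16.96). Alternatives were DESeq2 1.42.0, RLE scaling, no filter, the block, fits without libraries, and limma 3.58.1 on FPKM.

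Named genes are the 15 largest rises and falls (mean log2 CPM of at least 1, no overlap), every called list member, SOG1, ERF115, SMR7, ALS3, ALMT1 and IRT1, the 10 largest called differences in each direction, and abundant uncalled list members. Others, marked in the text or outside this rule, were picked after their values were seen. The gene lists and the choice of comparison were made with earlier results of these data known. Of the listed genes, 1 of the DNA damage response is counted in its list but not reported here by itself. Count intervals cover counting error only.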

Additional observations from a re-analysis of the deposited data

Results flagged for a closer look

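The Al response of sog1-7 differed from that of another genotype, by a test of the difference itself, for the genes below. Each value is the log2 fold change in sog1-7 minus that in the other genotype, from edgeR's quasi-likelihood test over all 21650 genes.

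Against wild type the single gene was IRT1, with a difference of −1.86, a call that depended on the fit as described above.

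Against als3-1, DNA damage response genes responded less in sog1-7: SMR7 by −5.14, AT1G20750 by −5.31, GMI1 by −2.61, TRFL10 by −2.46, XRI1 by −2.35, ERF114 by −2.91, BRCA1 by −2.14, RAD17 by −2.13, PARP1 by −1.20, PARP2 by −2.22, the cohesin gene SYN2 by −1.51, TIL1 by −1.40 and AGO2 by −0.98. Beyond the list, the RING finger gene AT5G60250 had −3.42, AT4G22960 −3.29, the ABC transporter gene ABCA10 −3.11, AT2G18193 −3.10 and AT3G45730 −2.39.

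Higher responses in sog1-7 were those of ALMT1 (2.56), TIL2 (2.58), the chitinase gene AT2G43590 (1.48), AT2G18480 (2.06), GDH1 (0.83), AT3G44870 (5.07), SULTR3;5 (0.86), MSRB7 (2.34) and LAF1 (1.58), all called higher in sog1-7. Genes not called in sog1-7, or lower there by less, were AGP30 (2.59), PLT1 (1.74), PLT2 (1.31), AT5G46900 (5.56), AT5G46890 (4.79), the cellulose synthase-like gene ATCSLB05 (4.64), AT1G19900 (3.88), AT4G12520 (3.84), the pectin lyase-like gene AT1G05660 (3.40), AT2G16230 (3.38), the desaturase gene AT1G06120 (3.18), AT3G59370 (2.99) and TRM10 (2.96).

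Of these 40 differences from als3-1, 17 were called in every alternative, 6 were lost only without the low-rRNA libraries, and the least secure, ERF114, was called in 4 of 18 alternatives.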

How the results depend on the processing

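With the replicate block the counts of called genes in sog1-7 were 353 higher and 201 lower, with DESeq2 335 and 207, without the low-rRNA libraries 90 and 52, and with the 6 sog1-7 libraries alone 49 and 29. The fit of the 6 libraries alone kept 49 of the 160 calls higher and 28 of the 97 calls lower of the main fit. Leaving out 1 sog1-7 library gave 98 to 157 higher and 46 to 87 lower. On FPKM, limma called 33 (pseudocount 1), 30 (0.1) and 59 (no filter) lower. The difference from wild type was called for 0 genes with the block, without the low-rRNA libraries, without rRNA genes in the totals (an alternative chosen after seeing the data) and without any 1 library (0 to 0), and for 3 with DESeq2. That from als3-1 was called for 410 genes with the block, 455 with DESeq2, 109 without the low-rRNA libraries and 149 to 254 without 1 library, the lowest without als3-1 1.5 mM replicate 3. The causes were not tested. The log2 fold change of SMR7 ran from −0.82 to 0.38 without 1 sog1-7 library, and was positive without 0 mM replicate 4.

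Among named genes called without it, the block ended the calls of RD29A, MIR163 and XTH20 (adjusted p = 0.0618, 0.0576 and 0.0513) and the differences of IRT1 (0.16) and ERF114 (0.0613), and no other call. RLE scaling and DESeq2 kept all 116 named results that were followed through the alternatives on their side of the threshold. Beyond these, DESeq2 called list members that edgeR did not, with 11 against 6 called aluminium resistance genes and 12 against 7 phosphate starvation genes. With 3 libraries a group, changes in genes that lie near or below the level of 3 counts at both concentrations could be missed.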
